A study of Mus musculus with 10 samples.

Results

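Cholesterol is built from acetyl-CoA along the mevalonate pathway, and 8 of its enzyme genes are described here by their RNA levels in a mouse embryonic stem cell line. The members were a given list of symbols, Hmgcs1, Mvd, Idi1, Fdps, Fdft1, Sqle, Lss and Cyp51, and all 8 matched a row among the 55487 genes of each expression table. All of them encode synthesis enzymes, and none is an uptake gene. The series has 10 samples of the line E14, of which 7 are R-loop maps (MapR, BisMapR and their controls) that were not analysed here. The remaining 3 are RNA-seq replicates of 1 group, with no treated or mutant group beside them, so levels are compared between genes and not between conditions. Per the labels, the cells grew in medium with 15% FBS, LIF, a GSK inhibitor at 3 µM and a MEK1/2 inhibitor at 1 µM, and no genetic change is named for them. The labels do not say whether the replicates came from separate cultures, so the spread given below may be technical. Total RNA was depleted of ribosomal RNA before directional libraries were made.

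As background, the first part of the pathway condenses acetyl units into mevalonate and turns it into activated isoprene units, which are joined into farnesyl diphosphate. The second part joins farnesyl units into squalene, closes the rings to lanosterol and trims lanosterol to cholesterol. Farnesyl diphosphate also feeds dolichol, ubiquinone and protein prenylation. The genes are known targets of SREBP-2, a transcription factor that is held in the endoplasmic reticulum by SCAP and INSIG proteins when sterol is plentiful and is cut free by the proteases S1P and S2P when sterol is scarce. SREBP proteins bind sterol regulatory elements and usually act with NF-Y, which binds CCAAT boxes, or with Sp1, which binds GC boxes. Serum brings lipoprotein cholesterol into such cultures, so cells in it can both take up and make cholesterol.

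All 8 genes were expressed in every replicate. Their mean levels ran from 7.84 ± 2.25 TPM for Lss to 38.3 ± 11.9 TPM for Fdps (SD, n = 3), a ratio of 4.88. TPM is a level per transcript length, scaled to the same total in each library. A mean of at least 1 TPM was reached by 8 of 8 members, against 19.8% of all genes and 44.1% of protein-coding genes. Among the 9683 protein-coding genes at that level, the members lay between the 60.6 percentile (Lss) and the 92.75 percentile (Fdps). Idi2, the paralog of Idi1, had 0 counts. In the test of spread between replicates, described below, 0 of the 8 were called, against 1.84% of all genes tested. At that share, 0 of 8 says little about the members.

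The libraries held between 5787357 and 11420425 estimated counts, replicate 1 being the deepest and replicate 3 the shallowest. A gene's estimated count is the number of reads the authors' estimator gave it, with reads that match several genes divided among them. The 8 members together took 860.04, 877 and 827 CPM (counts scaled to library size, a share of the library with no regard to length) in replicates 1, 2 and 3. Their counting error was small, from 2.14 to 4.54% of the value in replicate 1 and from 3.02 to 6.58% in replicate 3. The cell type label was checked with marker lists. All 7 pluripotency genes were expressed, with summed levels of 622, 519 and 452 TPM. Of 6 fibroblast genes, which would mark feeder cells, Col3a1, Postn and Dcn had 0 counts, and the summed level of the list was 3.15, 3.37 and 1.24 TPM, nearly all of it from Thy1. Of 5 hepatocyte genes, 4 including Alb and Cyp7a1 had 0 counts and the fifth, Apoa1, had 1 count in replicate 2. Of 7 early lineage genes none reached a mean of 1 TPM.

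Promoters of the members are shown because SREBP proteins and their partners are known to act at promoters of this pathway. RefSeq promoter windows (GRCm38.p6, 250 bases before to 50 after the RefSeq start) were found for 5 of the 8 genes, Hmgcs1, Mvd, Idi1, Lss and Cyp51. The entries for Fdps, Fdft1 and Sqle were missing. Motifs were searched on both strands as fixed letters. The core of a sterol regulatory element was searched as TCACNCCAC, and the CCAAT box by the letters of its name. A GC box was searched as GGGCGG. An E-box was searched as CACGTG. The 250 bases before the start of Hmgcs1, at chr13:119690101-119690350 on the plus strand, held the only match to the sterol element among the 5, beginning 137 bases before the start. In the sequence below, from 5′ to 3′ on the gene's strand, capitals mark that match and the 3 CCAAT boxes, which read ATTGG because they lie on the other strand. The window of Mvd, at chr8:122443423-122443672 on the minus strand, is set beside it with its CCAAT boxes in capitals, 1 in each orientation.
Hmgcs1: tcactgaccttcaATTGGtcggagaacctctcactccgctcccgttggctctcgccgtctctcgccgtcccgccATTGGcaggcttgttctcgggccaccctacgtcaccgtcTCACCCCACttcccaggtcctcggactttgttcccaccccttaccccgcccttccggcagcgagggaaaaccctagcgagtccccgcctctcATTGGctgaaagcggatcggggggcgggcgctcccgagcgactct
Mvd: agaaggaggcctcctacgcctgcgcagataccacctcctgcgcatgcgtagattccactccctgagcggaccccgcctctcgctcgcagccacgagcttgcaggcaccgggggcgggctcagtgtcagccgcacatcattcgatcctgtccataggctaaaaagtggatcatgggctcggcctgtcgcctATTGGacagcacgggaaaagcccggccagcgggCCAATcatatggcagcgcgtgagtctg

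A CCAAT box lay within the last 100 bases before the RefSeq start in 5 of the 5 promoters. The same was true of 18.9% of all 32851 windows and of 23.5% of the 9907 windows of protein-coding genes with a mean of at least 1 TPM. The cut at 100 bases was not planned, so this count describes the 5 promoters and tests nothing. For each gene the last box before the start is printed here with 10 bases on either side, to show what surrounds it. Hmgcs1 has a further box 11 bases past the start. They began 45 bases before the start in Hmgcs1 (chr13:119690296-119690320), 27 in Mvd (chr8:122443435-122443459), 14 in Idi1 (chr13:8885582-8885606), 62 in Lss (chr10:76531533-76531557) and 29 in Cyp51 (chr5:4104712-4104736). In the GENCODE annotation used for gene coordinates, Idi1 starts at 8885501 and Cyp51, on the minus strand, at 4104746. The printed boxes of Idi1 and Cyp51 thus lie inside the GENCODE genes, as does the GC box of Idi1. For these genes, before the start holds for the RefSeq start only. Capitals mark the box.
Hmgcs1: cccgcctctcATTGGctgaaagcgg
Mvd: ggccagcgggCCAATcatatggcag
Idi1: ccaaggtgccATTGGctggcgaccg
Lss: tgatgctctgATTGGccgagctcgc
Cyp51: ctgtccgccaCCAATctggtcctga

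The letters CCAAT were on the gene's own strand in Mvd and Cyp51 and on the other strand in Hmgcs1, Idi1 and Lss. Over the whole windows, a CCAAT box was present in 5 of 5, against 37.4% of all windows, and a GC box in 5 of 5, against 35.7%. In the 250 bases before the start, a GC box lay in 5 of 5, against 32.7% of all windows and 60.1% of those of expressed protein-coding genes. For CCAAT these shares were 33.85% and 36.8%. In the same stretch, CCAAT and GC boxes occurred together in 5 of 5, against 11.01% of all windows and 22.05% of those of expressed protein-coding genes. This joint count was not planned. The sterol element core was found in 1 of 5, against 1.24% of whole windows. The E-box was found in 0 of 5 and in 7.15% of whole windows. These are matches of letters in a short window. They do not show that a factor binds, and a missing match says only that these letters are not there. The promoter of Idi1 had 51.2% G and C bases, near the median of 52.4% over all windows, and the other 4 had between 62.8 and 73.6%.

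**Figure D1:**
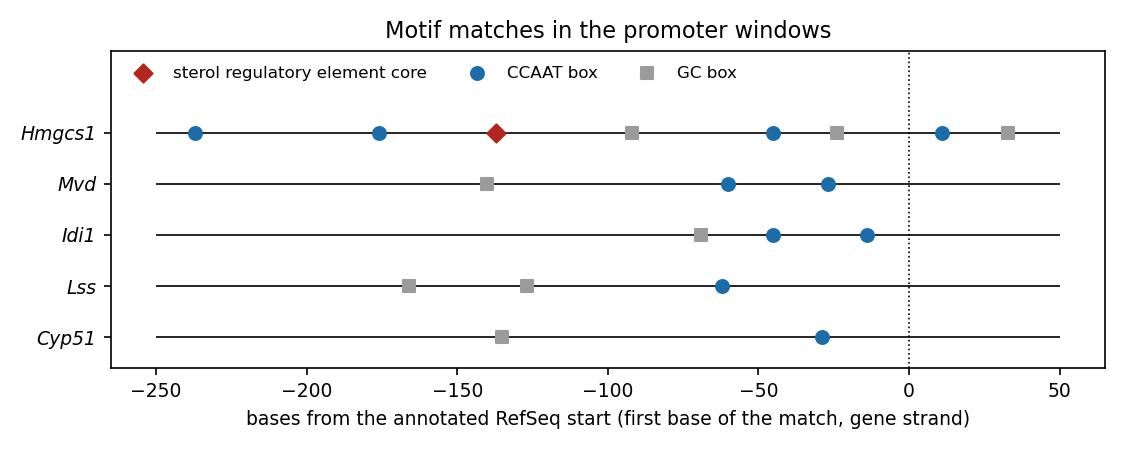
Matches to 3 motifs in the RefSeq promoter windows of 5 genes, by the position of the first base of the match relative to the annotated start (dotted line, x axis in bases, negative before the start). Every gene has a CCAAT box (circle) within 100 bases before the RefSeq start, and the sterol regulatory element core (diamond) appears in Hmgcs1 alone.

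The 4 genes that lead to farnesyl diphosphate are described first. Hmgcs1 (ENSMUSG00000093930, chr13:119690379-119708260), the cytosolic HMG-CoA synthase of the first part of the pathway, had 30.8, 26.85 and 23.8 TPM in replicates 1, 2 and 3. It had the highest count of the 8 genes, with 2179, 1217 and 1094 estimated counts. On the CPM scale it was the steadiest, at 190.8, 188.2 and 189.03 CPM, a coefficient of variation of 0.707%. That is less than the counting error of any single replicate. The 3 CPM values thus differed by less than counting error, while the TPM of replicate 1 stood above the others. This steadiness holds for plain CPM: in TMM-scaled CPM, which aligns the libraries on most genes, Hmgcs1 had 182.6, 183.4 and 206.1, with replicate 3 the highest.

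Mvd (ENSMUSG00000006517, chr8:122433601-122443422), the decarboxylase that makes isopentenyl diphosphate, had 11.07, 8.76 and 7.5 TPM. Its counts of 486, 268 and 231 were the lowest of the 8 in every replicate. In CPM it had 42.6, 41.4 and 39.9, a coefficient of variation of 3.21%. Mvd lies inside the span of Gm20388, a gene model of the opposite strand with 569.3, 332.5 and 51.9 counts. The labels name a directional kit, but the strand setting of the counting is not given in the sources used here, so reads of the overlapping genes may not be fully separated.

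Idi1 (ENSMUSG00000058258, chr13:8885501-8892451), the isomerase that interconverts the isoprene units, had 16.4, 15.6 and 13.04 TPM. In CPM, replicate 2 was highest at 127.7, with 108.1 and 111.7 CPM in replicates 1 and 3. The processed pseudogene Gm13502 on chromosome 2 matches an Idi1 transcript over 684 bases at 100% identity. It was given 10.92, 13.98 and 11.36 counts, and all 5 genes that match an Idi1 transcript together held 1.38% as many counts as Idi1. The split between Idi1 and Gm13502 is the estimator's own, and how many reads fall in the identical bases was not counted.

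Fdps (ENSMUSG00000059743, chr3:89093588-89101959), which joins isoprene units into farnesyl diphosphate and is the target of nitrogen-containing bisphosphonates, had the highest TPM of the 8. Its values were 51.5, 34.95 and 28.5 TPM, so replicate 1 stood well above the others. In CPM the same replicates gave 107.7, 103.9 and 95.2, close to one another, and Fdps ranked 5 of 8. Its rank in TPM rests on its short transcripts, with an effective length of 971 ± 77.7 nt (SD, n = 3) against at least 1618 nt on average for the other members. Of 7 other annotated genes that match Fdps transcripts, 6 were processed pseudogenes and 1 was a model overlapping Fdps on its own strand, with 0 counts. The highest was the pseudogene Gm3571 with 3.68, 5.16 and 1.24 counts. All 7 together held 0.656% as many counts as Fdps.

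The other 4 genes lead from farnesyl diphosphate into sterols. Fdft1 (ENSMUSG00000021273, chr14:63145150-63179578), squalene synthase, which commits farnesyl diphosphate to sterols, had 17.6, 13.3 and 14.1 TPM. It was the member whose TPM was lowest in replicate 2 and whose CPM was highest in replicate 3, at 113.9, 103.7 and 128.9 CPM. Its last 774 bases overlap the end of Ctsb, the gene of a lysosomal protease on the opposite strand, which had 1680, 897 and 780 counts. Reads from this overlap may not be separable, since the strand setting is not given, so the level of Fdft1 carries this limit.

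Sqle (ENSMUSG00000022351, chr15:59315077-59331192), squalene epoxidase, an oxygen-requiring control point of the pathway, had 17.03, 11.5 and 9.1 TPM. Replicate 1 was also highest in CPM, at 106.1 against 88.9 and 79.8. With a coefficient of variation of 14.6%, Sqle was the most variable of the 8 in CPM. Sdccag8, a gene on chromosome 1, matches an Sqle transcript in reverse complement over 224 bases at 92.9% identity, and had 38, 14 and 21 counts. Lss (ENSMUSG00000033105, chr10:76531588-76557138), the cyclase that closes the rings to lanosterol, had the lowest TPM at 10.03, 7.96 and 5.54. It had 69.1, 74.5 and 61.3 CPM, and exceeded Mvd on that scale in all 3 replicates.

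Cyp51 (ENSMUSG00000001467, chr5:4081145-4104746), the demethylase that acts on lanosterol, had 19.4, 19.1 and 18.5 TPM, the steadiest TPM of the 8. In CPM it was not the steadiest: replicate 2 was at 148.6 and the others at 121.8 and 121.1. RSEM, which the submitters' processing notes name, reports for each gene a length averaged over its transcripts and weighted by their estimated abundance. For Cyp51 the deposited length was 2786, 2795 and 2125 nt. The same 4 transcripts are listed in the tables and in GENCODE vM21, 1 coding transcript of 3931 nt and 3 noncoding ones of 528 to 781 nt. If the deposited length is that average, the noncoding transcripts hold between 33.6 and 36.3% of the Cyp51 TPM in replicate 1, between 33.4 and 36.1% in replicate 2 and between 53.1 and 57.3% in replicate 3. The coding transcript alone would then have 12.3 to 12.9, 12.2 to 12.7 and 7.91 to 8.70 TPM. The same calculation for Mvd, which has 1 coding and 1 other transcript, gave the other transcript 1.52, 2.27 and 0% of its TPM. On this reading, the steady gene-level TPM of Cyp51 sums a lower coding and a higher noncoding estimate in replicate 3 than in the others, from 1 library with no repeat. Akap9, on the opposite strand, overlaps the end of Cyp51 by 166 bases and had 589, 334 and 317 counts.

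**Figure D2:**
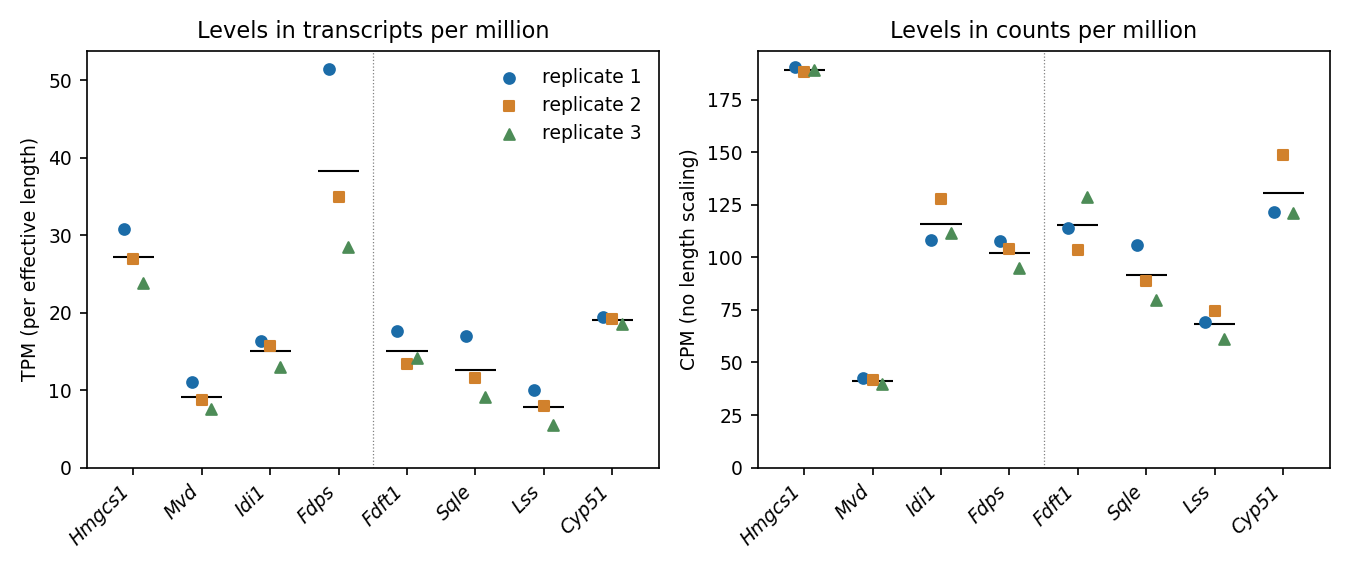
Levels of the 8 genes in 3 RNA-seq replicates, in pathway order, as TPM (left axis of the first panel) and as CPM (axis of the second panel); points are replicates, black lines are means, and the dotted line parts the genes up to farnesyl diphosphate from those after it. Fdps is highest in TPM but not in CPM, where Hmgcs1 is highest and its 3 replicates lie between 188.2 and 190.8.

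By mean TPM the order was Fdps, Hmgcs1, Cyp51, Fdft1, Idi1, Sqle, Mvd and Lss. Neighbours in this order were called apart where the ranges of their 3 replicates did not overlap. This held for 2 of 7 neighbouring pairs, Hmgcs1 over Cyp51 and Cyp51 over Fdft1. Fdft1 and Idi1, at 15.0 ± 2.27 and 15.0 ± 1.74 TPM (SD, n = 3), did not differ beyond their spread. Genes within 1 replicate share its library scale, so their order within it is also informative. Fdps exceeded Hmgcs1, Sqle exceeded Mvd and Mvd exceeded Lss in all 3 replicates, though their ranges overlapped. With single replicates left out, ranges rest on fewer values, and 5 pairs were apart without replicate 1 and 4 without replicate 3. Over all 28 pairs of members, 21 had ranges apart and 26 kept 1 order in the 3 replicates. In CPM the order became Hmgcs1, Cyp51, Idi1, Fdft1, Fdps, Sqle, Lss and Mvd, and 3 of 7 neighbouring pairs were apart.

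The 4 genes up to farnesyl diphosphate and the 4 after it were compared by their medians. In log2(TPM + 1) the first exceeded the second by 0.36, 0.68 and 0.60 in replicates 1, 2 and 3, a mean of 0.55 ± 0.17 (SD, n = 3). The difference had the same sign in all 3 replicates, but an exact test over 3 samples cannot go below a two-sided p of 0.25, so none was made. In log2(CPM + 1) the mean difference was 0.10 ± 0.15 (SD, n = 3), within its spread. The difference thus depends on the scaling by length.

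All 8 genes had their highest TPM in replicate 1, and 7 of 8 their lowest in replicate 3. The members followed most genes in this: 86.5% of expressed protein-coding genes were highest in replicate 1 and 79.4% lowest in replicate 3. TPM is scaled to a fixed total, and genes with an effective length under 100 nt took 60.3, 65.8 and 63.9% of it. That share was highest in replicate 2, not in replicate 3, and what set the order of the replicates was not tested. The median over expressed protein-coding genes, in log2(TPM + 1), was 0.59 higher in replicate 1 than in replicate 3. In CPM, 5 of 8 members were lowest in replicate 3, against 61.5% of expressed protein-coding genes.

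The TPM ratio of replicate 1 to replicate 3 was split into its parts for each member. The library scaling was common to all, at 1.38. For Sqle, with a TPM ratio of 1.87, CPM added a ratio of 1.33 and length 1.02. For Fdps, with a TPM ratio of 1.81, CPM added 1.13 and the longer effective length in replicate 3 added 1.16. Lss, also at 1.81, was alike, with 1.13 from CPM and 1.17 from length. For Cyp51 the parts cancelled: its effective length in replicate 3 was 0.752 of that in replicate 1, which left a TPM ratio of 1.04 with CPM at 1.01. Fdft1 had the lowest CPM ratio, 0.883.

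**Figure D3:**
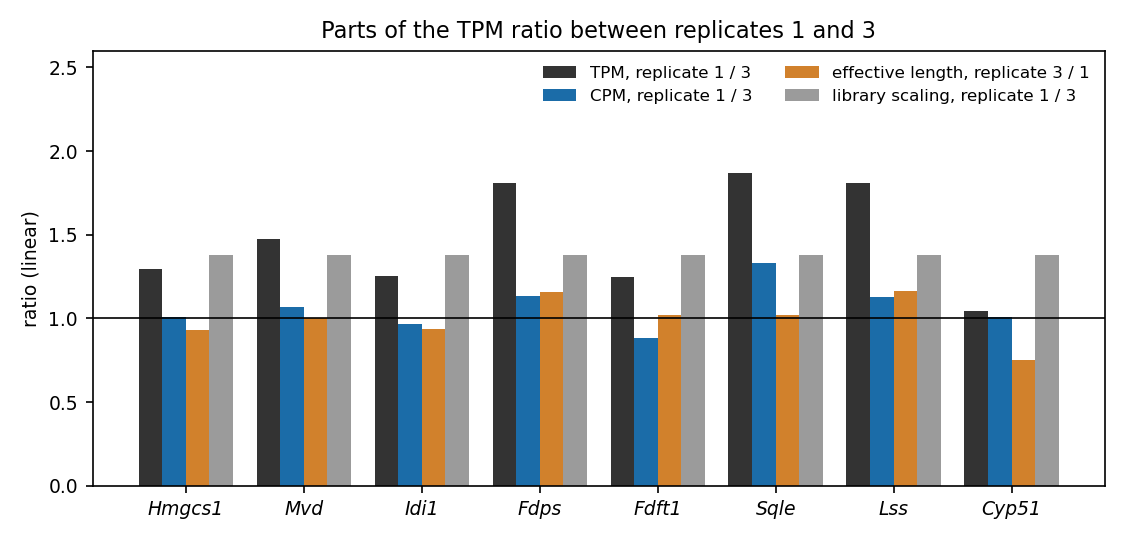
Ratios between replicates 1 and 3 for the 8 genes on a linear axis starting at 0: the TPM ratio (dark bars) is the product of the CPM ratio (blue), the inverse ratio of effective lengths (orange) and the library scaling (grey), and the line marks a ratio of 1. The grey bars are equal at 1.38, the orange bar of Cyp51 falls to 0.752, and Sqle has the highest CPM ratio, 1.33.

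Variation between replicates was tested for every gene with edgeR's goodness-of-fit test, which asks whether a gene's counts spread more than the trend for its abundance allows. Of 12577 genes tested, 232 were called at a Benjamini-Hochberg adjusted p under 0.05, a share of 1.84%. All 8 members passed the filter on low counts, and 0 of 8 were called. At an unadjusted p under 0.05 there were also 0 of 8 members and 875 of all genes, and with DESeq2 size factors 0 of 8 were called again. The smallest unadjusted p of a member was 0.318 by edgeR, that of Fdft1, whose adjusted p was 1. Without replicate 1, 2 or 3 the test called 89 of 12558, 63 of 13302 or 93 of 13608 genes, and 0 of 8 members each time. At shares this small, 0 of 8 does not set the members apart. A p that misses the threshold does not show that levels were equal. In TMM-scaled CPM, the range over replicates on the log2 scale was 0.036 for Fdps, 0.11 for Mvd, 0.14 for Lss, 0.17 for Hmgcs1, 0.23 for Sqle, 0.27 for Idi1, 0.31 for Cyp51 and 0.48 for Fdft1. Among the 200 genes nearest in abundance to Fdps, 99.0% had a wider range, and among those nearest to Fdft1, 17.0%. Fdps thus joined a wide spread in TPM to a narrow spread in TMM-scaled CPM. In plain CPM its coefficient of variation was 6.29%, above those of Hmgcs1 and Mvd and below those of the other members.

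Each member's deviation from its own mean was also set beside that of the 200 genes nearest to it in length. The median deviation of those genes in replicate 3 was between -0.053 at the lengths around Lss, the longest member, and 0.115 (log2) at those around Fdps, the shortest. Only Fdps and Sqle lay below their neighbours' median in replicate 3. Fdft1, at 0.28 in replicate 3, lay above the 95 percentile of its neighbours, 0.23. In replicate 3, 6 of the 8 members lay above their own mean, and in replicate 1, 6 lay below it. The share of all genes on either side was not counted, so no direction of the members is read from this. Fdps and Cyp51 were only 0.015 and 0.016 (log2) above their mean in replicate 3. The lowest values in replicate 1 were those of Idi1 (-0.17) and Cyp51 (-0.16), and the highest was that of Sqle (0.15).

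**Figure D4:**
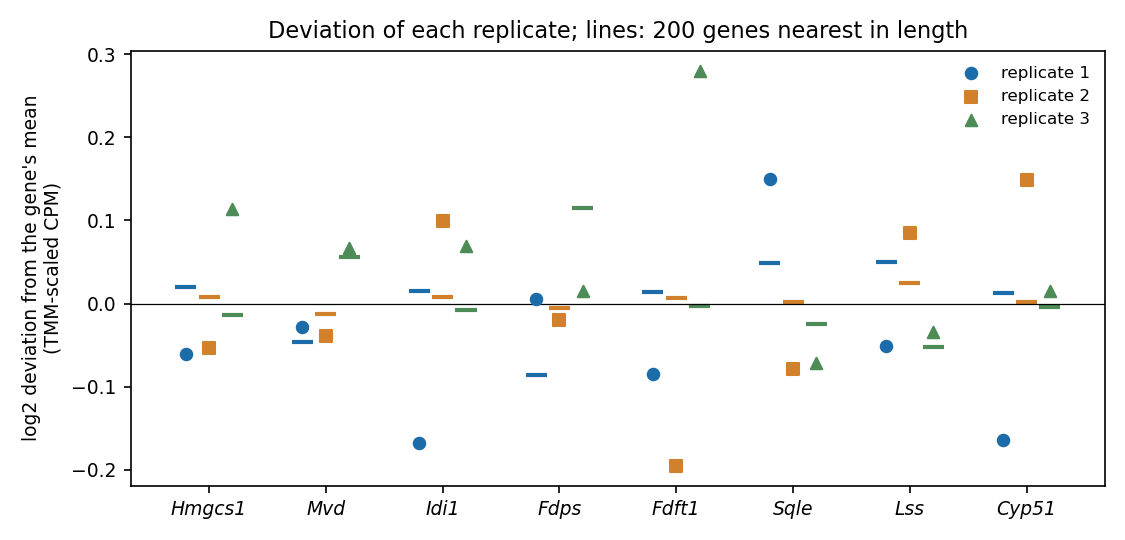
Points show, for the 8 genes, how far TMM-scaled CPM in a replicate lay from the mean of that gene (log2), with the median deviation of the 200 genes nearest in length (short lines in the replicate's colour). Fdft1 in replicate 3 is farthest from 0, at 0.28, and Fdps lies near 0 in all 3 replicates.

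Idi2, the paralog of Idi1 on the same chromosome, had 0 counts in every replicate. Against a floor of 3 counts over the group, Idi1 was at least 699.7-fold higher per effective length, a bound that covers counting error only.

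The rest of the cholesterol pathway was described by lists. Of 10 other sterol synthesis enzymes, 10 reached a mean of 1 TPM and 0 varied beyond the trend. Beside this and the list counts below stand 44.1% of protein-coding genes at that level and 1.84% of tested genes called. At that share, 0 called in a short list says little about it. Their median log2(TPM + 1) was 3.78, 3.34 and 3.33 in replicates 1, 2 and 3, beside 4.19, 3.95 and 3.86 for the 8 members. For expressed protein-coding genes it was 2.72 ± 0.29 (SD, n = 3), and the members exceeded it by 1.28 ± 0.14 (SD, n = 3). Msmo1, the oxidase that removes methyl groups after Cyp51, exceeded every member at 86.1, 64.1 and 63.9 TPM. Pmvk, the phosphomevalonate kinase that acts just before Mvd, was the lowest at 1.54, 2.85 and 1.74 TPM, from 40, 51 and 30 counts. Dhcr7, a reductase of the final steps, had 15.7 ± 4.12 TPM (SD, n = 3), a level in the range of the members.

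All 7 genes of SREBP regulation reached a mean of 1 TPM, and 0 of 7 varied beyond the trend, against 1.84% of genes tested. Srebf2, which encodes the main activator of these enzymes, had 20.1, 15.5 and 11.02 TPM, and Srebf1, which encodes the relative that acts more on fatty acid genes, 25.3, 11.5 and 12.2 TPM. In CPM, Srebf1 was much closer between replicates, at 85.5, 81.02 and 65.8. Insig1, itself a known SREBP target that retains SCAP when sterol is plentiful, had 23.9 ± 4.48 TPM, and Insig2 3.15 ± 0.903 TPM (SD, n = 3). Scap had 7.52, 5.96 and 3.16 TPM. The promoter factors Nfya, Nfyb, Nfyc and Sp1 all reached a mean of 1 TPM, from 6.48 ± 2.19 for Nfya to 22.3 ± 5.60 for Sp1 (SD, n = 3).

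Genes of uptake, trafficking and esterification had a lower median than the members in every replicate. Of 9 listed, 8 reached a mean of 1 TPM, and the median log2(TPM + 1) was 2.15 ± 0.59 (SD, n = 3). Npc2, a lysosomal cholesterol carrier, was highest at 31.4, 25.9 and 21.2 TPM, and Scarb1, a lipoprotein receptor, had 10.2, 9.17 and 5.02 TPM. Soat2, an esterifying enzyme of liver and gut, was lowest at 0.437 ± 0.110 TPM (SD, n = 3). Lrp1, a large endocytic receptor, was the 1 gene of this list that varied beyond the trend, with 114.9, 117.5 and 31.97 CPM and an adjusted p of 9.05e-05 by edgeR. Replicate 3 was low for Lrp1, and the others lay close together, so the call rests on 1 library. Over all genes tested, 1.84% were called, and other called genes were also lowest in replicate 3. Of 5 genes of LXR and efflux, 2 reached a mean of 1 TPM, and 0 of the 4 tested varied beyond the trend. Nr1h2, the broadly expressed oxysterol receptor, had 11.1 ± 2.98 TPM, while its relative Nr1h3 had 5, 1 and 2 counts and the cholesterol exporter Abca1 1.21 ± 0.323 TPM (SD, n = 3).

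**Figure D5:**
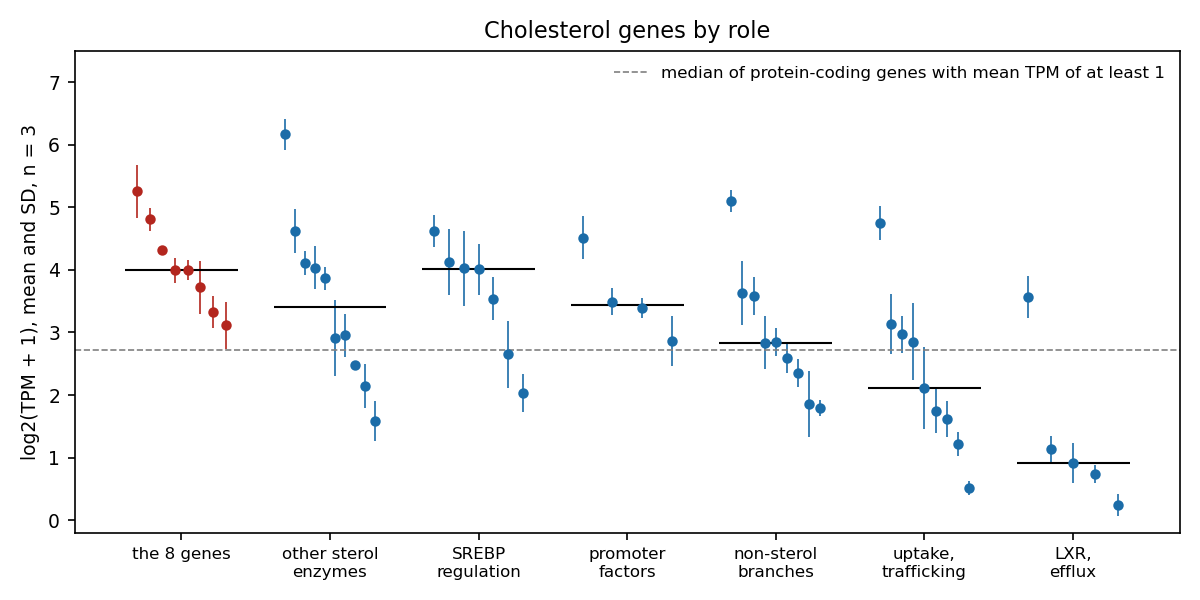
Genes of the cholesterol pathway by role, each point the mean log2(TPM + 1) of a gene with its SD over 3 replicates; black lines are the medians of those means per list and the dashed line is the median of protein-coding genes with a mean of at least 1 TPM, 2.72. The 8 genes lie above the dashed line, the list of LXR and efflux genes has its median at 0.914.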

How the data were processed

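Expression was measured by RNA-seq in 3 replicates of E14 cells. Per the file headers, the authors deposited expected counts (estimated counts) without normalization, TPM and FPKM (not used) for each gene, with length and effective length. The submitters' processing notes name mm10, STAR, RSEM, Bowtie2, SAMtools and deepTools without versions. The strand setting is not given in the sources used here.

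Samples were grouped by title. Names and coordinates came from GENCODE vM21 (GRCm38), matching 55227 of 55487 gene IDs. CPM were computed from counts, and list medians from log2(TPM + 1). Counts were rounded for edgeR 4.0.16 (R 4.3.3): filterByExpr, TMM, intercept-only fit with trended dispersion and goodness of fit. In a simulation of that test over 12390 genes, 5 of 50 genes raised 2-fold in 1 replicate were recovered, 43 of 50 at 4-fold. Its counts were drawn from the fitted trend, so drops in a replicate and each gene's own dispersion were not simulated. Copies were genes matched by blastn 2.17.0 at 90% identity over 200 bases. Other steps used Python 3.11.15, pandas 2.3.3, scipy 1.17.1 and matplotlib 3.10.9.

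The members and lists were chosen with earlier results of these data known. Named genes are the members, the listed genes, the paralog Idi2, copies with a mean of at least 3 counts and the 3 genes nearest to the members' median profile. Overlapping genes were named after their values were seen. Alternatives used DESeq2 1.42.0 size factors, or another pseudocount, TPM denominator, length scaling, filters, dispersion, motif and replicates used. Some genes of the pathway are not reported here. Proteins were not analysed here.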

Additional observations from a re-analysis of the deposited data

How the results depend on the processing

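A reversal needed a change of sign, which only the differences between medians could show, and none was seen. Leaving out 1 replicate cannot move a mean of 3 by more than its SD. The 24 alternatives of that kind for single members thus had to stay. Over 91 alternatives, all planned, 63 stayed within the allowed spread or within 1.5 times the count, and 28 moved. Of those that moved, 16 were the mean TPM of single members, which rose for each of the 8 when TPM was rescaled over genes of effective length of at least 100 nt (Hmgcs1 to 74.04) or over protein-coding genes (Hmgcs1 to 138.7), by construction. The members' median exceeded that of expressed protein-coding genes by 1.28 (log2). With those denominators the values were 1.69 and 1.91, with CPM 2.15, and with no filter on the genes compared 3.47. The cutoff of 1 was applied anew in each unit, so the genes compared changed with it. These values thus do not show the effect of the unit on a fixed set of genes. The difference between the first and last 4 genes fell to 0.10 with CPM. The number of neighbouring pairs apart, 2 of 7, became 4 with protein-coding TPM and ran from 2 to 5 when single replicates were left out, being 5 without replicate 1 and 4 without replicate 3, where ranges rest on fewer values. The number of genes varying beyond the trend ran from 63 to 93 when single replicates were left out. It was 89 of 12558 tested without replicate 1, 63 of 13302 without replicate 2 and 93 of 13608 without replicate 3. Members called stayed at 0 of 8 in each, which says little about them at such small shares. A longer sterol element with no free base was found in 0 of the 5 promoters. Depth limits only the low genes: 3 counts were 0.263 to 0.518 CPM.

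No paired analysis was possible because 1 group alone was analysed, so replicate numbers shared with the R-loop groups pair nothing here.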

Other observations

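The branches that leave the pathway at farnesyl diphosphate were expressed as well. All 9 listed genes reached a mean of 1 TPM, against 44.1% of protein-coding genes. In edgeR's test 0 of 9 varied beyond the trend, against 1.84% of genes tested, a share at which 0 says little. Fnta, the subunit shared by both protein prenyltransferases of the list, was highest at 37.2, 33.9 and 28.9 TPM, while its partners Fntb and Pggt1b had 6.34 ± 2.07 and 4.15 ± 0.857 TPM (SD, n = 3). Ggps1, which makes geranylgeranyl diphosphate, had 14.3, 9.71 and 9.44 TPM, and Nus1, a subunit of the dolichol-forming enzyme, 17.1, 10.4 and 8.03 TPM, above its partner Dhdds at 4.15, 2.68 and 1.49 TPM. The median log2(TPM + 1) of the list was 2.73 ± 0.27 (SD, n = 3).

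The protein-coding genes nearest to the members' median profile, by Euclidean distance of log2(TPM + 1) over the 3 replicates, were Timm44, Gins2 and Ctps, at distances of 0.042, 0.046 and 0.050. With 3 replicates of 1 group this likeness is one of level. Their TPM in replicate 1 were 17.6, 17.1 and 17.4 in the same order.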
